A study of Mus musculus with 27 samples.

Results

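The 6 genes described here, read by 7 probe sets, encode regulators of progenitor cells and were followed through mouse pancreatic islets in which a switchable Myc protein was turned on and off. They were Sox4, Id1, Id2, Id3, Id4 and Hes1, taken by symbol as every probe set that the platform annotation gives to 1 of these genes alone, out of 12422 probe sets tested and 8251 genes with a probe set of their own. Sox4 had 2 probe sets and each other gene had 1; the Sox4 set with the higher mean over all arrays, 160109_at, is the main reading and 101430_at stands beside it. The genes were listed with earlier results of these arrays known, and the measured values they were chosen on are not recorded. All levels, differences and p-values of the 6 genes are therefore a description, and a p-value only places a gene within a fit of all probe sets.

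RNA came from laser-captured islets on 27 arrays, 3 in each of 9 groups. All mice, the untreated ones included, carried the MycER and BclXL transgenes, each driven by an insulin promoter and so aimed at beta cells; MycER is a Myc protein that acts while 4-hydroxytamoxifen is bound, and BclXL is a survival protein. Mice were killed 2, 4, 8 or 24 h after 1 injection of 4-hydroxytamoxifen, after 21 days of daily tamoxifen, or 2, 4 or 6 days after such a course had ended, and untreated mice were taken at 0 h. The sample titles give 4-hydroxytamoxifen for the daily course too, while the design text gives tamoxifen. The labels name no group injected without drug or lacking MycER, so here injection, drug and Myc cannot be told apart, and the labels give neither the age of the mice nor whether the 3 arrays of a group came from separate mice. The p-values thus measure only the spread between these samples.

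Sox4 is a transcription factor with an HMG box, a DNA-bending domain, and belongs to the SoxC group with Sox11; it takes part in forming endocrine cells in the embryonic mouse pancreas. The 4 Id proteins have a helix-loop-helix domain without the basic stretch that touches DNA; they bind E proteins such as Tcf3, Tcf4 and Tcf12 and keep them from working with cell type factors such as Neurod1. Id genes are common targets of bone morphogenetic protein (BMP) signals carried by Smad proteins. Hes1, a repressor switched on by Notch receptors, holds back Neurog3 in the developing pancreas and so keeps cells in a progenitor state. Id1 and Id3 are known from endothelium, and Id2 from several kinds of leukocyte.

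Promoter sequence was taken from RefSeq on GRCm38.p6 for the genes the results turn on, from 250 bases before to 50 bases after the annotated start; 4 of the 6 genes matched, Sox4, Id2, Id3 and Id4. Shown are Sox4, the gene with called differences, and Id2 and Id3, whose levels went with markers of different cells. Capitals mark the letters of the CCAAT box and of its reverse complement. The windows are chr13:28953650-28953949 on the minus strand for Sox4, chr12:25096043-25096342 on the minus strand for Id2 and chr4:136143572-136143871 on the plus strand for Id3.
Sox4: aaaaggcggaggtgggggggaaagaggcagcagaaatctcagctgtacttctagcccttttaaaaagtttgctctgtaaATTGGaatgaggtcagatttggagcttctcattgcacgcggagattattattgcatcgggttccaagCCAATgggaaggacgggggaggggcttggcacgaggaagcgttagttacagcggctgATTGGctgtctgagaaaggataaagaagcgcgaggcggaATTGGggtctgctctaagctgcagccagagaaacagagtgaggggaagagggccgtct
Id2: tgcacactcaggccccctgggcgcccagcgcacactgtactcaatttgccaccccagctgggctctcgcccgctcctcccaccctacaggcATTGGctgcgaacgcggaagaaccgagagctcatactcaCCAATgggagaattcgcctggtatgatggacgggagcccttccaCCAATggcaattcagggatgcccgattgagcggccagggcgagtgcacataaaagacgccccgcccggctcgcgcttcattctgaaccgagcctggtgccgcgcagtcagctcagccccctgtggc
Id3: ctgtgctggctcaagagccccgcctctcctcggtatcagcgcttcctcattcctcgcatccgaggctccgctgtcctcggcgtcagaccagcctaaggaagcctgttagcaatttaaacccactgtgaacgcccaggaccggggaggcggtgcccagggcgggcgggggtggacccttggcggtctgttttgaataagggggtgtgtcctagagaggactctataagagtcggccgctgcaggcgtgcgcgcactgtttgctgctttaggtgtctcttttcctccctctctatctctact
Sox4 held 4 matches to CCAAT on both strands together and Id2 held 3, while Id3 held 0 and Id4 held 2. Of 32851 promoters in the table, 37.4% held at least 1 match, 3.37% at least 3 and 1.06% at least 4. The E-box letters read by Myc with Max, CACGTG, were in 0 of the 4 windows and in 7.15% of all promoters. Letters read by Rbpj, the DNA-binding partner of Notch, were searched as GTGGGAA on both strands and were likewise in 0 of the 4 windows, and in 6.38% of all promoters. A GC-rich element known from BMP-responsive genes was searched as TGGCGCC, again on both strands, with 0 of the 4 windows and 4.03% of all promoters holding it. The last of these motifs can share its TGG with a CCAAT box on the other strand. GC content was 52.0% for Sox4, 63.3% for Id2 and 60.0% for Id3, with a median of 52.7% over all promoters.

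Array medians lay between 6.91 and 7.01 on the log2 scale, and arrays give no read depth, so the 3 arrays per group limit the precision. Islet markers were strong: Iapp, the amylin gene, read 12.58 ± 0.13 at 21 days and 12.74 ± 0.16 in untreated islets (SD, n = 3 each). Markers of other cells were read as well. Pecam1 of endothelium read 8.48 ± 0.17 and 8.11 ± 0.16 in the same groups, and Ptprc of leukocytes 6.25 ± 0.23 and 6.40 ± 0.45. Pecam1 did not stand for other endothelial markers. Over the 14 measured, the median difference at 21 days against untreated islets was -0.34, with 2 above zero. In such bulk samples fewer cells of a type and less RNA per cell cannot be told apart. Bacterial control probe sets, a guide to background, averaged between 3.58 and 7.14 over the arrays, PheX-3 being the highest and ThrX-3 the next at 5.68. By their mean over all arrays the main probe sets stood at 8.83 for Sox4, 8.13 for Id3, 7.94 for Id1, 7.48 for Hes1, 7.31 for Id2 and 5.41 for Id4; these are levels of different probe sets and do not rank the genes against each other.

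Sox4 was the one gene of the 6 with called differences. Called means an adjusted p under 0.05 in limma fitted to all 27 arrays, with Benjamini-Hochberg adjustment over the 12422 probe sets. Sox4 (gene ID 20677, chromosome 13, 28948919 to 28953699 on GRCm38.p6) read 10.22, 10.36 and 9.09 on the log2 scale in the 21 day islets, against 8.64, 8.12 and 8.05 in untreated islets. All 3 of the 21 day arrays lay above all untreated ones, as in 16.5% of all probe sets, with replicate 3 well below the other two. The difference was 1.62 ± 0.29 (SE), 3.07-fold, with a 95% interval of 1.03 to 2.21 and limma adjusted p = 0.000853. At 21 days 1 of the 6 genes was called, beside 14.6% of all probe sets.

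The second Sox4 probe set gave the same direction at a smaller size. Its arrays, at 6.03 to 7.42, all lay below the top of the highest bacterial control, PheX-3, at 6.92 to 7.50. They lay above the next control, ThrX-3, at 5.30 to 5.98. 101430_at read 7.05, 7.22 and 6.82 at 21 days, against 6.38, 6.17 and 6.03 in untreated islets, again without overlap. The difference was 0.84 ± 0.20 (1.79-fold, limma adjusted p = 0.00837). Over the 27 arrays the probe sets had a Pearson r of 0.67 (Spearman 0.51), and 0.64 after each array's group mean was taken off, as a description over arrays that share scale and groups.

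In the first day after the injection Sox4 lay above untreated islets on its main probe set without a call. It read 8.79, 8.77 and 8.92 at 2 h, 8.70, 8.83 and 9.31 at 4 h, 9.46, 8.88 and 8.70 at 8 h and 8.81, 8.89 and 8.74 at 24 h. At each of these times all 3 arrays stood above the highest untreated array, 8.64. The differences were 0.56 ± 0.29, 0.68 ± 0.29, 0.74 ± 0.29 and 0.54 ± 0.29, with limma adjusted p of 0.458, 0.446, 0.21 and 0.478. The 4 comparisons share the untreated arrays, of which replicates 2 and 3 read 8.12 and 8.05. All arrays lay above untreated in 5.31%, 4.48%, 5.14% and 6.84% of all probe sets. The second probe set read 0.17, 0.097, 0.057 and -0.037 at those times with overlapping arrays. Its 95% interval at 2 h, -0.25 to 0.59, holds the 0.56 of the main set, and the difference between the probe sets was not tested. Of the 6 genes 0 were called by limma at 2, 4, 8 or 24 h, beside 0.394%, 0.797%, 1.7% and 1.38% of all probe sets; at an unadjusted p under 0.05 the count was 0 at 2 h, 1 at 4 h, 1 at 8 h and 0 at 24 h, the 1 being Sox4, beside 11.7%, 8.34%, 15.9% and 11.8% of all probe sets. A count of 1 in 6 is near those shares.

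Against 24 h, the 21 day islets also had more Sox4. The difference was 1.08 ± 0.29 (2.11-fold, limma adjusted p = 0.0109) on the main probe set and 0.87 ± 0.20 (1.83-fold, adjusted p = 0.00472) on the second, with no overlap of arrays on either. Here 1 of 6 genes was called, beside 20.8% of all probe sets. All arrays lay above in 24.1% of all probe sets. The call of the main set ended without 21 day replicate 1 (difference 0.91, adjusted p = 0.0578) or replicate 2 (0.84, adjusted p = 0.0769). With acinar and leukocyte marker levels as covariates the Sox4 difference was larger, 1.21, but was not called (adjusted p = 0.127), and the calls over all probe sets were 372, against 2587 without the covariates. Acinar marker means were 7.81 ± 0.42 at 21 days and 11.41 ± 0.27 at 24 h; their part in the Sox4 difference was not tested beyond that fit.

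**Figure D1:**
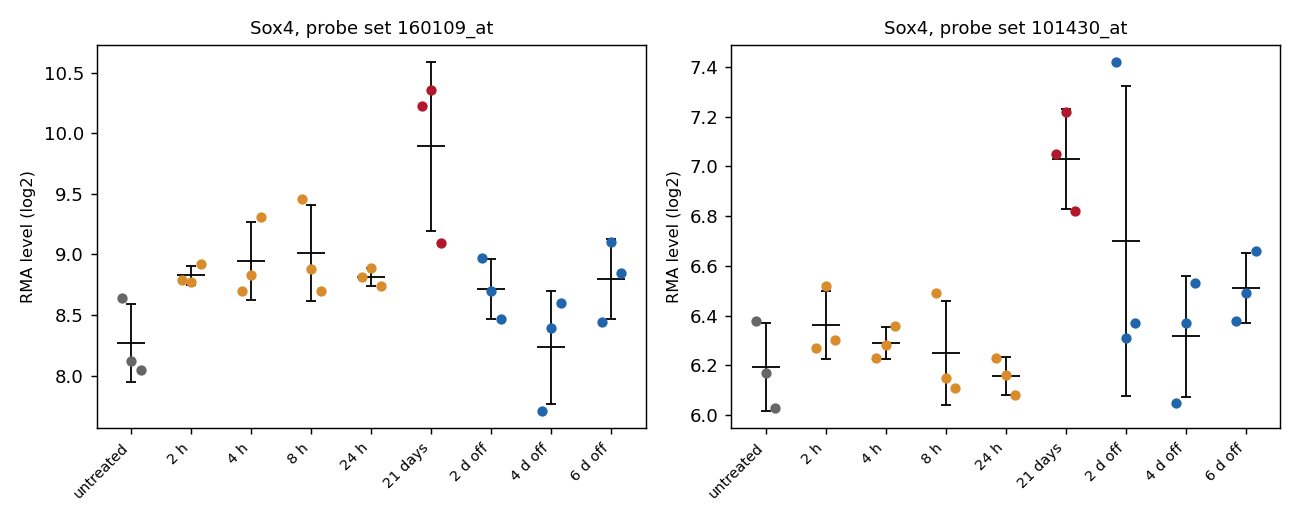
Sox4 RMA level (log2) on both of its probe sets in each of the 9 groups, from untreated to 6 days off drug. Points are arrays, the bar is the mean and whiskers are 1 SD of 3 arrays; the 21 day arrays sit between 9.09 and 10.36 on the left and between 6.82 and 7.22 on the right, above all untreated arrays.

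After the drug was stopped Sox4 was lower than at 21 days. At 4 days off it read 7.71, 8.39 and 8.60, against 10.22, 10.36 and 9.09 at 21 days, with no overlap, as in 25% of all probe sets, which had all arrays below. It fell by 1.66 ± 0.29 on the log2 scale, and 21 days exceeded 4 days off 3.15-fold (limma adjusted p = 0.00846). The second probe set fell by 0.71 ± 0.20 (adjusted p = 0.0438). At 4 days off 1 of 6 genes was called, beside 6.01% of all probe sets. Without replicate 1 at 4 days off, the lowest Sox4 array of the study at 7.71, the difference was -1.40 with adjusted p = 0.0659, and 1 of all probe sets was called.

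The values at 2 and 6 days off were intermediate and were not called. Sox4 read 8.97, 8.70 and 8.47 at 2 days off, all below the 21 day arrays (as in 15% of all probe sets), a difference of -1.18 ± 0.29 (limma adjusted p = 0.0887). At 6 days off it read 8.44, 9.10 and 8.85, which overlaps 21 day replicate 3, and the difference was -1.09 ± 0.29 (adjusted p = 0.0924). Both passed without 21 day replicate 3 (adjusted p = 0.00918 and 0.0252) and with array weights (0.00932 and 0.00607), and in no other setting. The highest limma adjusted p at 2 and 6 days off was 0.349 and 0.33 over the settings. It was 0.362 and 0.285 without 1 array. The second probe set at 2 days off read 7.42, 6.31 and 6.37, so that replicate 1 there lay above every 21 day array (difference -0.33 ± 0.20, adjusted p = 0.415). At 6 days off it read 6.38, 6.49 and 6.66, all below the 21 day arrays (as in 11% of all probe sets), a difference of -0.52 ± 0.20 (adjusted p = 0.251). Limma called 0 of the 6 genes at 2 days off and 0 at 6 days off, beside 0.153% and 0.274% of all probe sets, and 1 at each time, Sox4, had an unadjusted p under 0.05, beside 16.1% and 13.8%. Against untreated islets, 6 days off was 0.53 ± 0.29 higher (adjusted p = 0.255), with 0 of 6 genes called, 0 at an unadjusted p under 0.05, and 11.7% of all probe sets called.

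Ordered by group mean, Sox4 stood at 9.89 ± 0.70 at 21 days, 9.01 ± 0.40 at 8 h, 8.95 ± 0.32 at 4 h, 8.83 ± 0.08 at 2 h, 8.81 ± 0.08 at 24 h, 8.80 ± 0.33 at 6 days off, 8.71 ± 0.25 at 2 days off, 8.27 ± 0.32 in untreated islets and 8.23 ± 0.47 at 4 days off (SD, n = 3 each). Neighbours in this order overlapped in their arrays, also 21 days and 8 h, where replicate 3 at 21 days fell below replicate 1 at 8 h. A test over all 9 groups, limma's F, called Sox4 (F = 5.69, adjusted p = 0.00362) and 0 of the other 5 genes, beside 37.9% of all probe sets. The span of its group means, 1.66, was larger than that of 96.7% of probe sets, and its spread within groups, 0.37, larger than that of 90.6%.

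Several marker lists also differed at 21 days, and their part in the Sox4 values was not tested beyond the fits given here. The 8 beta cell markers measured (of 14 written) had a mean level of 9.64 ± 0.17 at 21 days and 10.51 ± 0.22 in untreated islets, and 4 of them were called lower. Stromal markers averaged 8.34 ± 0.21 and 7.91 ± 0.31, with 0 of 12 called by limma and 5 at an unadjusted p under 0.05. Acinar markers differed most in size, with means of 7.81 ± 0.42 at 21 days and 9.24 ± 1.35 in untreated islets and a median difference of -1.95, with 1 of 11 above zero. Limma called 0 of 11 acinar, 0 of 10 duct, 0 of 23 leukocyte, 0 of 5 other endocrine and 0 of 5 nerve and glia markers, with 4, 0, 0, 1 and 1 at an unadjusted p under 0.05. The 5 nerve and glia markers measured, among them Ncam1, which endocrine cells also make, averaged 7.67, 7.70 and 7.40 in 21 day replicates 1, 2 and 3. Sox4 was high and low in that order there, but not in every group. At 4 h the markers averaged 7.37, 7.35 and 7.34, while Sox4 read 8.70, 8.83 and 9.31, the reverse order. Over the 27 arrays Sox4 had r = 0.45 with this list (Spearman 0.18), and 0.62 within groups, while with the beta cell list it had r = -0.56 (Spearman -0.45), and -0.14 within groups. With the nerve and glia list as a covariate, chosen after seeing the data, the 21 day difference was 1.30 (limma adjusted p = 0.00309). The beta cell list was not fitted as a covariate. The Gapdh 3′ signal exceeded its 5′ signal, a measure of RNA quality, by 4.75 ± 1.02 in untreated islets, 4.83 ± 0.08 at 21 days and 3.83 ± 0.32 at 4 days off; with this excess as a covariate the 21 day difference was 1.61 and that at 4 days off was -1.59, both called.

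Other Sox genes and factors of the pancreatic progenitor were set beside Sox4. Of 14 measured Sox genes, 3 rose at 21 days, 0 fell and 11 were not called (median difference 0.02, against 0.04 over all probe sets). Of all probe sets, 7.27% were called higher and 7.37% lower in this comparison. Beside Sox4 these were Sox11, its close relative, by 0.69 ± 0.16 (1.62-fold, limma adjusted p = 0.00716), and Sox6, a SoxD factor without a transactivation domain, by 0.29 ± 0.08 (adjusted p = 0.0226) from 4.12, a level in the range of the bacterial controls. The other Sox11 probe set read 0.06 (adjusted p = 0.702) and that of Sox6 0.15 (adjusted p = 0.361). Of 18 progenitor and endocrine factors, 1 rose and 2 fell (median -0.01). Myt1, a zinc finger factor of endocrine differentiation, rose by 1.02 ± 0.29 (adjusted p = 0.0195), Pdx1, which marks pancreatic progenitors and later beta cells, fell by 1.01 ± 0.20 (adjusted p = 0.00188), and Hhex, a factor of the foregut endoderm and of delta cells, fell by 0.58 ± 0.18 (adjusted p = 0.0353). Neurog3, the switch into the endocrine lineage, was -0.12 ± 0.09 (adjusted p = 0.395).

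Id1 and Id3 were not called in any of the 10 comparisons, and their arrays overlapped in each. Id1 (100050_at, gene ID 15901, chromosome 2, 152736251 to 152737410) read 8.51, 8.65 and 8.10 at 2 h and 8.39, 8.17 and 8.74 at 4 h, against 8.50, 7.99 and 7.26 in untreated islets. The untreated arrays of Id1 thus spanned most of the range of the gene. Its difference was 0.50 ± 0.29 at 2 h (limma adjusted p = 0.508) and 0.52 ± 0.29 at 4 h (adjusted p = 0.756). At 24 h Id1 read 7.73, 7.73 and 7.70, a far tighter group than the untreated one. At 21 days it read 7.62, 7.03 and 8.12, a difference of -0.33 ± 0.29 from untreated islets with a 95% interval of -0.93 to 0.28 (adjusted p = 0.499).

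Id3 (92614_at, gene ID 15903, chromosome 4, 136143822 to 136145392) took a like course. It read 8.44, 9.32 and 8.29 at 2 h, 8.39, 8.27 and 8.81 at 4 h and 9.05, 7.95 and 8.18 at 8 h, against 8.79, 7.92 and 7.99 in untreated islets. One array in each of the 2 h, 8 h and untreated groups stood well above its neighbours. Later arrays were lower and closer together: 7.66, 7.76 and 7.92 at 24 h and 7.96, 7.74 and 8.04 at 21 days, and in the 9 arrays off drug Id3 stayed between 7.58 and 8.18. The differences from untreated islets were 0.45 ± 0.27 at 2 h (limma adjusted p = 0.531), -0.45 ± 0.27 at 24 h (0.556) and -0.32 ± 0.27 at 21 days (0.478). The F over 9 groups had adjusted p = 0.0535 for Id3 and 0.12 for Id1.

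The levels of Id1 and Id3 went together across arrays and with endothelial markers. Over the 27 arrays the r between Id1 and Id3 was 0.75 (Spearman 0.69), and 0.68 within groups. Id1 had r = 0.68 and Id3 r = 0.73 with the mean of 14 endothelial markers measured of 18 written, and 0.78 and 0.62 within groups. The r of Sox4 with these markers was -0.11 over the arrays and 0.22 within groups. With the stromal list, Id1 and Id3 had r of 0.09 and 0.007 over the arrays, and 0.47 and 0.49 within groups. All arrays share scale and amplification, and these values are descriptions. The endothelial mean lay between 7.97 and 8.41 in untreated islets, 8.00 and 8.17 at 2 h, 7.83 and 7.90 at 24 h, and 7.75 and 7.85 at 21 days. RMA values have no 0, and the defining markers read 8.11 for Pecam1, 7.41 for Kdr and 7.06 for Cdh5 in untreated islets. The part of endothelium in the Id values was not tested beyond the fit that follows. At 21 days 4 of the 14 markers were called lower than in untreated islets, Tie1, Emcn, Icam2 and Acvrl1, and 1, Pecam1, higher. With the endothelial mean as a covariate, the Id1 difference at 24 h was 0.54, against -0.20 without it, and that of Id3 was 0.097, against -0.45. At 21 days the covariate gave 0.51 for Id1, against -0.33, and 0.31 for Id3, against -0.32. All 4 differences changed sign and none was called either way. At 2 h the covariate gave larger differences, 0.72 for Id1, against 0.50, and 0.61 for Id3, against 0.45, again without a call. The F over 9 groups called Id1 with the covariate (limma adjusted p = 0.0402) and did not without it (0.12).

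Id2 (93013_at, gene ID 15902, chromosome 12, 25093799 to 25096092) had the widest spread between replicates of the 6 genes. It read 8.42, 7.27 and 7.90 at 2 h, 7.60, 6.47 and 7.23 at 4 h and 7.79, 6.52 and 8.34 at 8 h, against 7.23, 6.98 and 7.53 in untreated islets. Replicate 2 was the lowest array in each of these 4 groups, and the groups overlapped throughout. The spread within groups was 0.48, larger than that of 95.4% of probe sets. Differences from untreated islets were 0.62 ± 0.36 at 2 h (1.53-fold, limma adjusted p = 0.515) and -0.04 ± 0.36 at 21 days (95% interval -0.79 to 0.71), which leaves room for a difference in either direction.

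Id2 went with the leukocyte markers over the arrays, though not in the same order within every group. The mean of 23 leukocyte markers measured of 27 written was 8.62, 7.65 and 7.99 in replicates 1, 2 and 3 at 2 h and 7.84, 7.08 and 8.37 at 8 h, in the same order as Id2 in both groups. In untreated islets it was 7.46, 7.31 and 7.60, again in the order of Id2. Over the 27 arrays r was 0.81 (Spearman 0.75), and 0.79 within groups. The leukocyte list itself had 0 of 23 genes called by limma at 2 h and 5 at an unadjusted p under 0.05, with a median difference of 0.42. With the leukocyte mean as a covariate the Id2 difference at 2 h was 0.007, against 0.62 without it. Neither was called (limma adjusted p = 0.993 and 0.515). This covariate was chosen after seeing the data, and the part of leukocytes in the Id2 values was not tested beyond that fit.

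**Figure D2:**
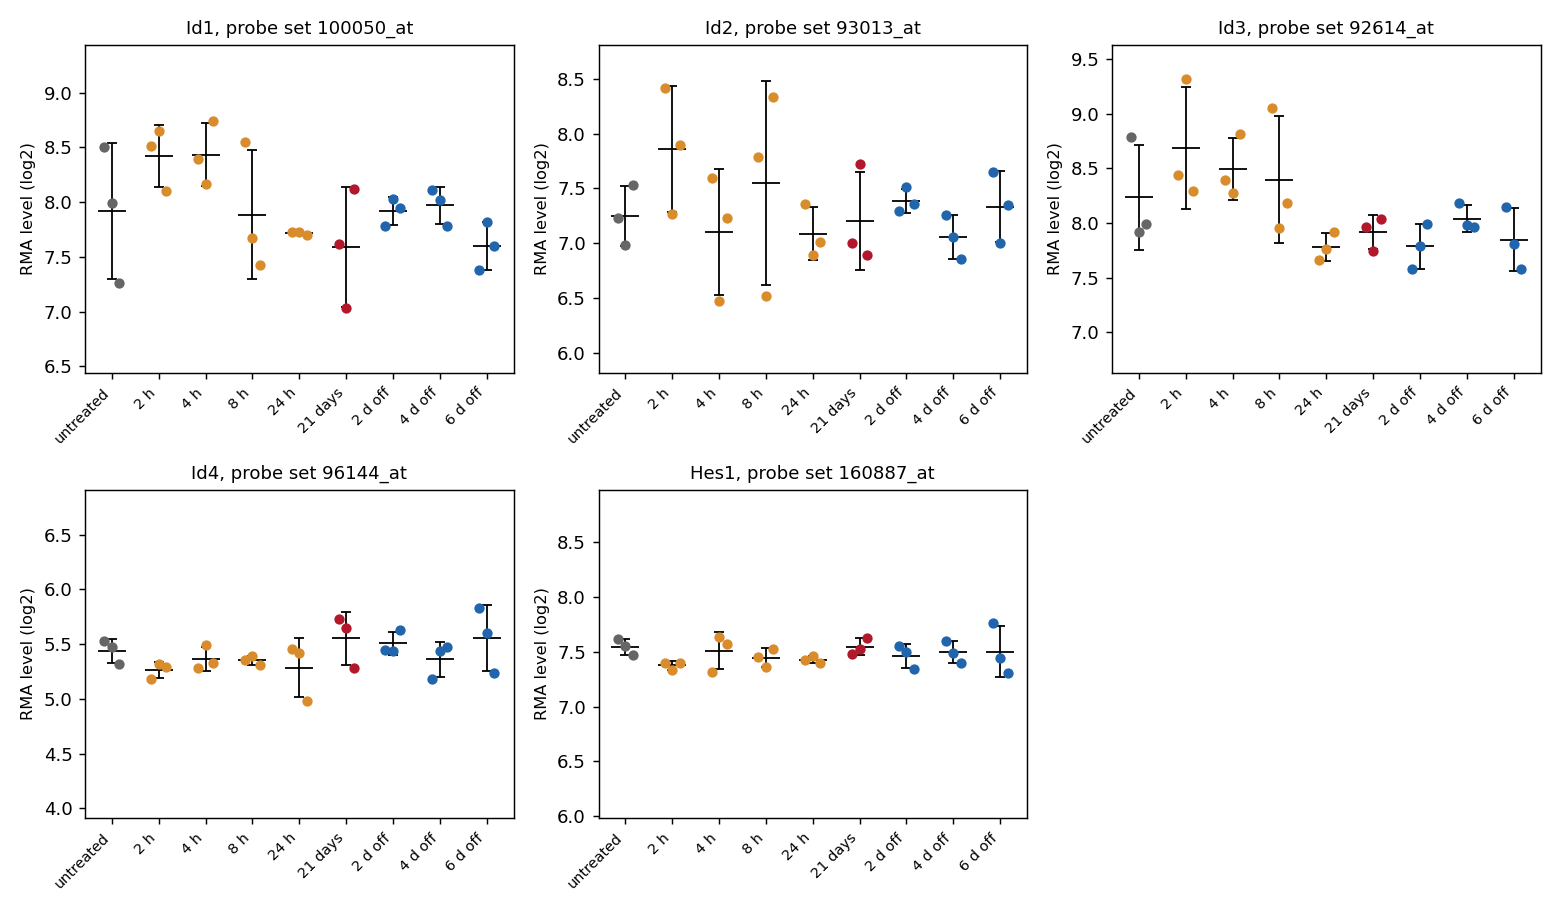
RMA levels (log2) of Id1, Id2, Id3, Id4 and Hes1 in the 9 groups, each panel spanning 3 log2 units. Points are arrays, bars are means and whiskers 1 SD of 3 arrays; Id2 ranges from 6.47 to 8.42 while Hes1 stays between 7.31 and 7.76.

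**Figure D3:**
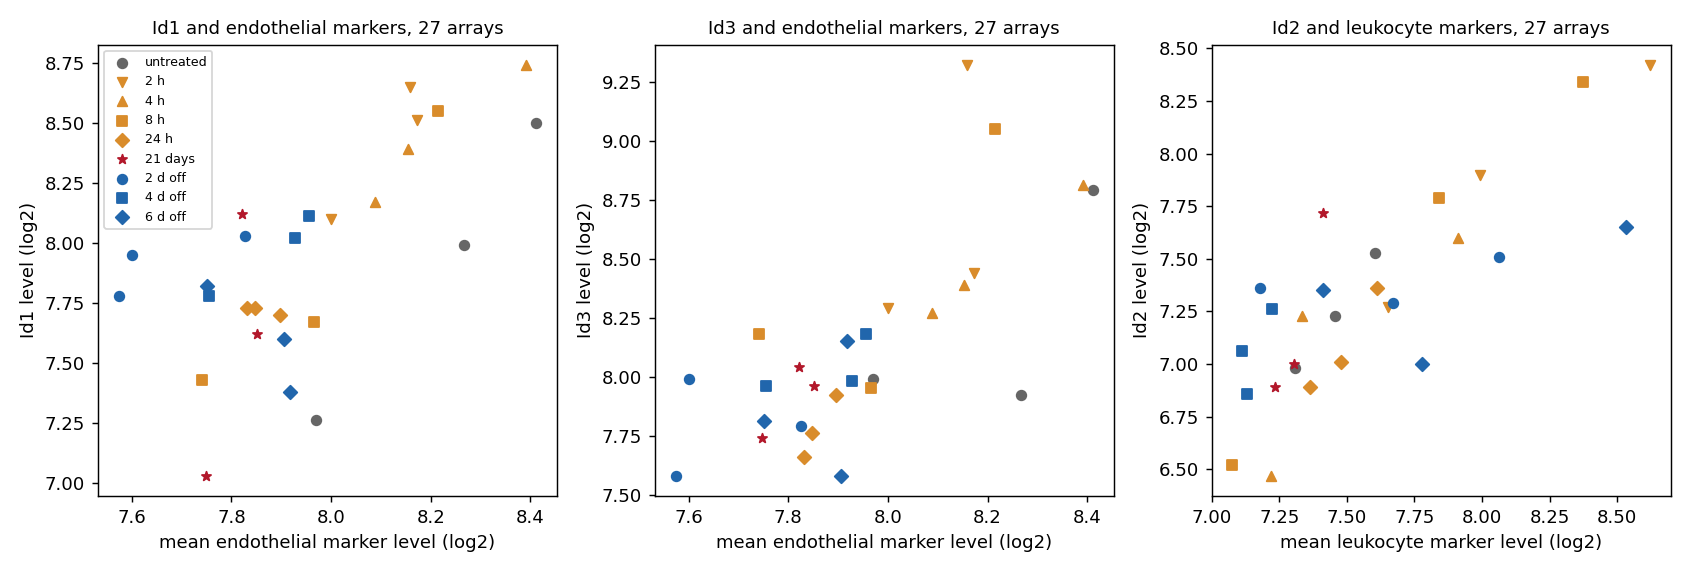
Levels of Id1 and Id3 against the mean endothelial marker level, and of Id2 against the mean leukocyte marker level, all on the log2 scale. Each point is 1 of 27 arrays with its group shown by colour and shape; r was 0.68, 0.73 and 0.81 over the arrays.

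Id4 and Hes1 were nearly flat. Id4 (96144_at, gene ID 15904, chromosome 13, 48261116 to 48266028) read between 4.98 and 5.83 over all 27 arrays, in the range of the upper bacterial controls such as TrpnX-5 at 5.04 and ThrX-3 at 5.68, so a level above background was not shown. It read 5.73, 5.65 and 5.28 at 21 days, against 5.53, 5.47 and 5.32 in untreated islets, with overlap and a difference of 0.11 ± 0.14 (limma adjusted p = 0.657). Hes1 (160887_at, gene ID 15205, chromosome 16, 30065357 to 30067796) read 7.48, 7.53 and 7.63 at 21 days, against 7.62, 7.55 and 7.47 in untreated islets. The means of these groups were the same to 2 decimals, 7.55, with a 95% interval of the difference from -0.22 to 0.22. The Hes1 arrays, at 7.31 to 7.76, overlapped the range of the highest bacterial control, PheX-3, at 6.92 to 7.50. Across the 10 comparisons the Hes1 differences lay between -0.17 and 0.12, and all their 95% intervals lay between -0.39 and 0.33. The span of its 9 group means, 0.17, was larger than that of 1.6% of probe sets, and the median span was 0.5. Hes1 read 7.40, 7.33 and 7.40 at 2 h, all below the 3 untreated arrays, at -0.17 ± 0.10 (adjusted p = 0.532). All arrays lay below untreated in 10.5% of probe sets. At 24 h its arrays were also all below untreated, at -0.12 ± 0.10 (limma adjusted p = 0.721), as in 8.71% of probe sets. The 21 day arrays were all above those of 24 h, at 0.12 ± 0.10 (adjusted p = 0.455), as in 24.1% of probe sets.

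**Figure D4:**
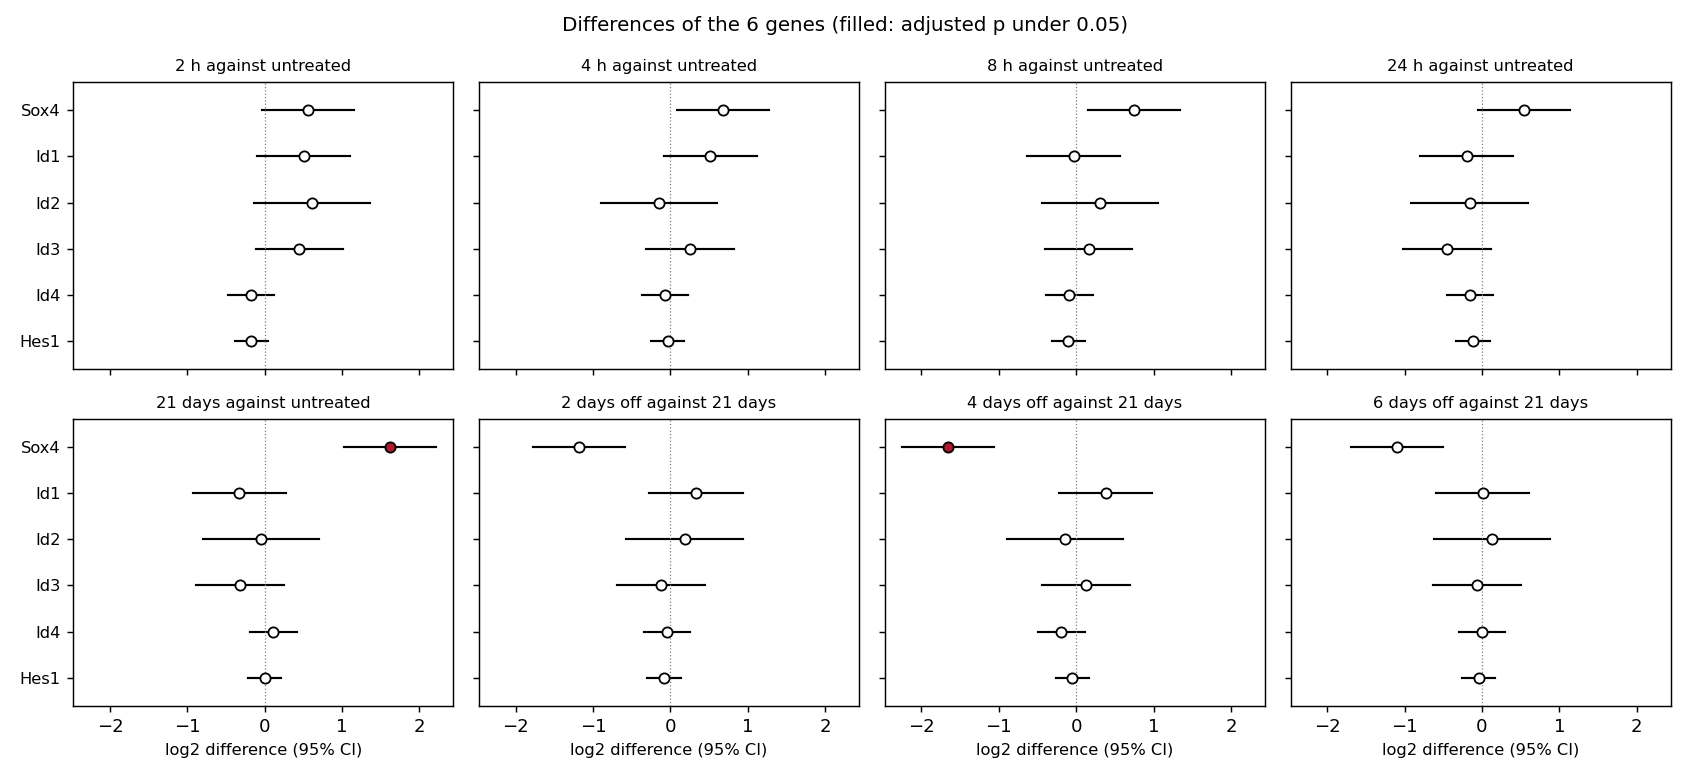
Log2 differences of the 6 genes in 8 comparisons, with limma 95% intervals; the first group named in a panel title is on top of the difference. Filled points have an adjusted p under 0.05 and are Sox4 at 21 days against untreated (1.62) and at 4 days off against 21 days (-1.66).

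Genes that feed into the Id genes were read from lists of BMP and TGF-beta signalling at 21 days against untreated islets. Of 26 ligands 0 rose and 2 fell, Inha by 0.72 ± 0.22 and Inhba by 0.54 ± 0.12, the subunits of inhibins and activins (limma adjusted p = 0.0289 and 0.00558; median -0.05, against 0.04 over all probe sets). The shares called over all probe sets are those given for the Sox genes, 7.27% higher and 7.37% lower. Bmp4, a BMP made in islets, was 0.05 ± 0.13 and did not pass (adjusted p = 0.835). Of 12 receptors 1 fell, Acvrl1, a BMP receptor of endothelium, by 0.74 ± 0.14 (adjusted p = 0.00174); its other probe sets read -1.03 (called) and 0.16 (not called). Of 18 Smads, Smad regulators and antagonists 2 rose, Smad1, which carries BMP signals, by 0.82 ± 0.28 (adjusted p = 0.0488), and Zeb1, a repressor that binds Smads, by 0.59 ± 0.19 (adjusted p = 0.0436). Their other probe sets read 0.09 and 0.24 and were not called. The feedback inhibitors Smad6 and Smad7 were -0.25 ± 0.14 and -0.11 ± 0.16 (adjusted p = 0.245 and 0.706).

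The partners of Id proteins and the restraints on division tied to them were read next, at 21 days, where 7.27% of all probe sets were called higher and 7.37% lower. Of 27 E proteins and other basic helix-loop-helix factors, 1 rose and 0 fell (median 0.01). The one was Tcf12, an E protein, which rose by 0.88 ± 0.25 (1.84-fold, limma adjusted p = 0.0236). Tcf3 was 0.06 ± 0.12 (adjusted p = 0.803), Tcf4 0.61 ± 0.38 (adjusted p = 0.303) and Neurod1 0.14 ± 0.30 (adjusted p = 0.805). Of 10 cell cycle inhibitors 2 rose, the pocket proteins Rb1 by 0.63 ± 0.21 and Rbl2 by 0.82 ± 0.20 (adjusted p = 0.0481 and 0.00833), and 1 fell, the kinase inhibitor Cdkn2d by 0.47 ± 0.13 (adjusted p = 0.0146; median 0.06). Cdkn1a, which E proteins can switch on, was 0.28 ± 0.20 (adjusted p = 0.378).

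Around Hes1, the Notch genes moved in both directions at 21 days. Of 18 ligands, receptors and processing genes 2 rose, 3 fell and 13 were not called (median 0.06), beside 7.27% of all probe sets called higher and 7.37% lower. Dlk1, a ligand-like protein, rose by 3.70 ± 0.29 (limma adjusted p = 7.62e-08), Psen2, a subunit of gamma-secretase, fell by 1.32 ± 0.17 (adjusted p = 6.47e-05), and Furin, a protease that cuts Notch, fell by 0.33 ± 0.10 (adjusted p = 0.0321; named after its value was seen). The main probe sets of Notch1 and Numb, which restrains Notch, read -0.63 ± 0.16 and 0.88 ± 0.21, both called, but a second probe set of each was called the other way, 0.38 ± 0.12 for Notch1 and -0.61 ± 0.19 for Numb, so their direction is uncertain. Of 12 nuclear factors and targets, Hes1 not among them, 2 rose and 1 fell (median 0.11). Hes6, a relative that counters Hes1, rose by 0.73 ± 0.22 (adjusted p = 0.0279), Snw1, a cofactor of Rbpj and of splicing, by 0.88 ± 0.26 (adjusted p = 0.0283), and Hes5 fell by 0.36 ± 0.11 (adjusted p = 0.0282); second probe sets of Snw1 and Hes5 read 0.40 and 0.09 and were not called. Rbpj was -0.10 ± 0.12 and Hey1, another target, 0.12 ± 0.12, neither called (adjusted p = 0.61 and 0.561).

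Immediate early genes, which many stimuli switch on within minutes and which include handling responses, stood beside the early Id values. Of 27 measured, 1 was called at 2 h, Socs3, by 2.02 ± 0.34 (limma adjusted p = 0.00803), beside 0.394% of all probe sets. At an unadjusted p under 0.05 there were 13 of the 27, beside 11.7% of all probe sets, and the median was 0.50, against -0.07 over all probe sets. At 21 days 5 rose and 1 fell, beside 7.27% of all probe sets called higher and 7.37% lower, among the risers Klf10, a TGF-beta inducible factor, by 1.41 ± 0.23 (adjusted p = 0.000421) and Socs3 by 1.14 ± 0.34 (adjusted p = 0.0306), whose other probe set read 0.16 and was not called. Their part in the Sox4 and Id values was not tested.

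The genes whose levels were most like each of the 6 were taken by the highest Pearson r over the 27 arrays among 8250 other genes. For Sox4 they were S100g (r = 0.71), a calcium-binding protein, Klf9 (0.69), a glucocorticoid-responsive zinc finger factor, and Gabrg3 (0.69), a GABA receptor subunit. S100g stood at 4.54 at 21 days and 4.30 in untreated islets, and Gabrg3 at 5.95 and 5.53, both in the range of bacterial controls. For Id1 they were Anxa3 (0.81), an annexin, Plcd1 (0.78), a phospholipase, and Notch4 (0.76), a Notch receptor of endothelium. For Id2 they were Cd53 (0.84), Mpeg1 (0.80) and Lyz2 (0.80), all genes of leukocytes or macrophages, of which Cd53 and Lyz2 are on the leukocyte list used above. For Id3 they were Map3k6 (0.85), a kinase, Osmr (0.80), the oncostatin M receptor, and Pptc7 (0.79), a mitochondrial phosphatase. For Id4 they were Vim (0.89), the vimentin gene, Iscu (0.85) and Diablo (0.84), and for Hes1 Gm16793 (0.73), B4galnt2 (0.70) and Spam1 (0.69). Diablo, Gm16793 and B4galnt2 stood at 4.92, 4.76 and 4.78 at 21 days and at 4.75, 4.70 and 4.64 in untreated islets, also in the range of the bacterial controls. Spam1, at 6.01 and 5.77 in the same groups, stood close to ThrX-3 at 5.68. Id4 itself was not shown to be above background. With so many genes compared over 27 arrays, values of this size are a ranking only.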

How the data were processed

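RNA of laser-captured islets was amplified in 2 rounds and hybridised with a biotin label, per the labels. The deposited values are log2 levels per probe set from RMA, per the submitters' processing notes, with no version or settings stated; they were used without further scaling. Of 12488 probe sets, 66 controls were left out. Genes were named from the platform annotation where it gives 1 symbol (10833 probe sets), and a gene was read at its highest-mean probe set.

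The 10 comparisons and the 9-group F were fitted with limma 3.58.1 (R 4.3.3; lmFit, eBayes, 9 group means, all 27 arrays, 18 residual degrees of freedom, two-sided), adjusted over 12422 probe sets. Errors of differences are SE and those of levels SD. The members and the 10 pathway and 8 marker lists were chosen with earlier results of these data known. Named were the members, up to 4 called genes of a list, a fixed panel and the 3 genes most like each member. With 3 arrays against 3 a permutation cannot give p under 0.1, and none is given. The fit was also run on simulated data with independent normal spread in each probe set. Outlying arrays and shifts shared between probe sets were not simulated, and no value given here rests on that run. Replicate numbers were not taken to pair the arrays. Promoters are from RefSeq.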

Additional observations from a re-analysis of the deposited data

How the results depend on the processing

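The Sox4 rise at 21 days against untreated islets kept its call in all 14 other settings and without each of the 6 arrays (log2 difference 1.23 to 1.85 and 1.39 to 2.02, highest limma adjusted p 0.0206). Of 1423 values of single genes under other settings, 1400 kept their side of the threshold, 4 lost a call, 19 gained one and 0 called values turned direction; 76 uncalled values changed sign. At 21 days against 24 h, 0 members were called with acinar and leukocyte covariates, where the Sox4 difference was 1.21 (1.08 without them), and 0 to 1 without 1 array. At 4 days off, 0 to 1 were called without 1 array. With array weights 1 member, Sox4, was called at 2 days off, at 6 days off and at 6 days off against untreated; without 1 array 0 to 1 were called at 2 and at 6 days off against 21 days. The 9-group F called 2 members after median centring, after quantile normalization, without the 40% dimmest probe sets and with an endothelial covariate, 3 with array weights, and 1 to 3 without 1 array, Id3 or Id1 joining Sox4. The causes were not tested. The leukocyte covariate alone and the nerve and glia covariate were chosen after seeing the data. Id4 falls out of the fit without the dimmest probe sets.

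With the replicate number as a block, 0 members were called at 2, 4, 8 and 24 h, 1 at 21 days, 1 against 24 h, 0, 1 and 0 at 2, 4 and 6 days off, 0 at 6 days off against untreated and 1 by the F, as without the block. Same-numbered arrays correlated in their deviations with r between -0.23 and 0.36, so the numbers were not taken to pair arrays.

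Counts over all probe sets moved more: over all settings and left-out arrays 0 to 132 were called at 2 h (49 as reported), 20 to 140 at 4 h (99), 5 to 282 at 8 h (211), 50 to 336 at 24 h (171), 332 to 2108 at 21 days (1819), 372 to 4256 against 24 h (2587), 0 to 625, 1 to 3360 and 0 to 1283 at 2, 4 and 6 days off (19, 746 and 34), 37 to 2399 at 6 days off against untreated (1456) and 2774 to 7976 by the F (4713).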
